A study of Mus musculus with 8 samples.

Results

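The chemokine receptor gene Cxcr4, the gene of its ligand Cxcl12, and 7 related chemokine genes were examined in mouse cumulus oocyte complexes that lack the progesterone receptor. The 9 genes were Cxcr4 and Cx3cr1, which encode receptors, and Cxcl12, Cxcl14, Cxcl16, Cxcl1, Cxcl10, Ccl2 and Ccl7, which encode ligands. They were taken by gene symbol from the 19938 genes read on the array. A gene with several probe sets is represented by its brightest, and each of the 9 had 1 probe set.

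A cumulus oocyte complex is the oocyte with the cumulus granulosa cells around it. The PRKO mice were homozygous for a lacZ insertion that disrupts transcription of both isoforms of the progesterone receptor, a ligand-activated transcription factor that granulosa cells begin to make after the ovulatory surge. The PR+/- mice were heterozygous for the same insertion, so the control mice carried 1 disrupted allele and were not wild type. All mice were pre-pubertal, 21 to 23 days old, and received 5 IU of equine chorionic gonadotropin followed 44 to 47 h later by 5 IU of human chorionic gonadotropin (hCG). Complexes were taken from antral follicles of both genotypes 8 h after hCG. Each of the 4 arrays per genotype held RNA pooled from 3 animals, so differences between single animals were not measured. The insertion is present in every tissue of these mice, so effects that began in the complex and effects that came from other cells of the ovary cannot be told apart.

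Chemokines are small secreted proteins that direct cell movement through receptors coupled to G proteins. CXCL12 binds CXCR4, which signals through inhibitory G proteins to phosphoinositide 3-kinase and Rac, and it also binds ACKR3, a receptor that recruits arrestins and scavenges the ligand. Cxcr4 is one of the genes that earlier work tied to the progesterone receptor in ovulating follicles, while ligands such as CXCL1 and CCL2 are known for drawing leukocytes to the ovulating ovary.

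Array medians lay between 5.35 and 5.46 log2 units. The Pgr probe set, which reads the gene that carries the insertion, averaged 5.69 ± 0.40 in PRKO and 6.78 ± 0.57 in PR+/- complexes (log2 signal, mean ± SD, n = 4 each). The arrays of the genotypes overlapped and the limma adjusted p was 0.0452. That call ended when PR+/- replicate 2, 3 or 4 or PRKO replicate 1, 2 or 3 was left out, at adjusted p from 0.066 to 0.13, and under 4 other alternatives, at up to 0.247 without moderation, so Pgr is a weak check of the labels. The position of its probe set within the gene, before or after the insertion, is not known here. Genes of the cells named in the label were read on every array, with means of 12.52 in PRKO and 12.36 in PR+/- for the granulosa gene Inha, 7.45 in PRKO and 7.26 in PR+/- for the oocyte gene Bmp15, and 7.09 in PRKO and 7.29 in PR+/- for the oocyte gene Nlrp5.

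Cxcr4 was the 1 gene of the 9 that passed the test. Its log2 signal was 9.75, 10.14, 10.20 and 10.41 on PRKO replicates 1 to 4, against 11.85, 11.71, 11.95 and 11.62 on PR+/- replicates 1 to 4. All PRKO arrays lay below all PR+/- arrays, and 1.21 log2 units separated the highest PRKO array from the lowest PR+/- array. The means were 10.13 ± 0.27 in PRKO and 11.78 ± 0.15 in PR+/- complexes (SD, n = 4 each). Cxcr4 therefore fell by 1.65 ± 0.13 log2 units (SE), a 3.15-fold difference with a 95% interval of 2.59 to 3.83-fold, and its limma adjusted p was 6.2e-05. A two-sided exact permutation test over the 70 arrangements of the arrays gave p = 0.0286, the smallest that 4 against 4 arrays allow. On this scale the PRKO signal was 31.8% of the PR+/- signal, and the Cxcr4 probe set remained at or above the 95.7th percentile of brightness on each PRKO array. The complexes are mixtures of cells, and fewer cells with Cxcr4 cannot be told apart from less Cxcr4 RNA per cell.

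Among all 19938 genes Cxcr4 had the 22nd largest difference, and 296 genes (1.48%) were lower and 286 (1.43%) higher at an adjusted p of 0.05. Taken both ways, 2.92% of genes passed. Of the 9 chemokine genes 1 was lower and 0 were higher, 1 had an unadjusted p under 0.05, and 16% of all genes had one. The median difference was 0.041 over the 9 genes and 0.004 over all genes.

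**Figure D1:**
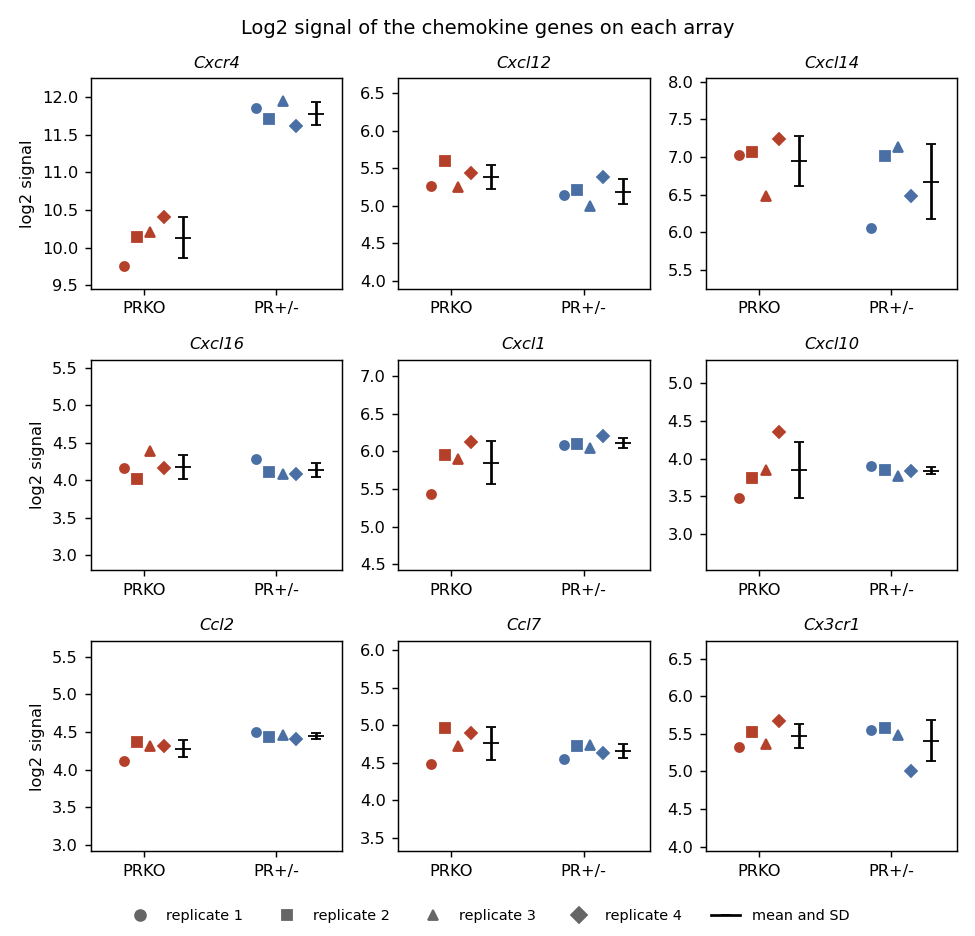
Log2 signal (vertical axis, the same span in each panel) of the 9 genes on the 4 PRKO (red, left) and 4 PR+/- arrays (blue, right), with a symbol for each replicate number and the mean ± SD in black. The Cxcr4 arrays lie at 9.75 to 10.41 in PRKO and at 11.62 to 11.95 in PR+/-, while the genotypes overlap for 7 of the other 8 genes.

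The bases before the start of Cxcr4 and of Cxcl12 are shown because the receptor gene fell and its ligand gene did not pass the test. Both stretches are the 250 bases upstream of the start in RefSeq on GRCm38.p6, written 5′ to 3′ on the strand of the gene. Capitals mark matches to AGAACA, a half-site of the progesterone response element, and to GCGTG or ACGTG, core letters of the hypoxia response element, on either strand.
Cxcr4, chr1:128592300-128592549, minus strand: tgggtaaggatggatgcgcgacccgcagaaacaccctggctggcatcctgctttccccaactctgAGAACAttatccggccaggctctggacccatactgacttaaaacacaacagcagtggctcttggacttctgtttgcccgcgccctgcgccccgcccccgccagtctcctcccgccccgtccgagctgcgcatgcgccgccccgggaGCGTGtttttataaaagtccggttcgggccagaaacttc
Cxcl12, chr6:117168285-117168534, plus strand: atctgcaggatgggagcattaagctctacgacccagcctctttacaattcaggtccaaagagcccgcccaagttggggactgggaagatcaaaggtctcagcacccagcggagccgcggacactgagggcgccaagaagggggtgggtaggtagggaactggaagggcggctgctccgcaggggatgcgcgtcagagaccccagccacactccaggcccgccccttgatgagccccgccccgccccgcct
The Cxcr4 window held AGAACA at -185 to -180 and GCGTG at -39 to -35, counted back from the start, and the Cxcl12 window held none of these letters. AGAACA occurred in 16.1%, GCGTG in 28.2% and ACGTG in 16.6% of 32841 such windows, so each match is common. The paired progesterone response element, with the half-site facing its mirror image, was found in 0.387% of windows and in neither of these. Of the 9 genes 6 had such a window. AGAACA was present for 2 of them (Cxcr4 and Cxcl14), GCGTG for 3 (Cxcr4, Cxcl14 and Cxcl10) and ACGTG for Cxcl1. No window was available for Cxcl16, Ccl2 and Ccl7. A match shows the letters only, and the arrays carry no measurement of binding at these windows.

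Cxcl12, the ligand of CXCR4, read 5.27, 5.59, 5.25 and 5.43 in PRKO complexes, against 5.15, 5.21, 5.00 and 5.38 in PR+/- complexes. The genotypes overlapped, since PR+/- replicate 4 lay above PRKO replicates 1 and 3. The difference of 0.20 ± 0.10 (SE) had a 95% interval of -0.03 to 0.43 and a limma adjusted p of 0.393. The interval thus reaches from a level 0.98 times to 1.34 times that of PR+/- complexes, and a decrease of the size seen for Cxcr4 lies outside it. Stroma cells are known sources of CXCL12, and their marker list averaged 6.0 to 6.5 on the PRKO arrays and 5.96 to 6.26 on the PR+/- arrays. With that mean as a covariate Cxcl12 differed by 0.25 (limma adjusted p = 0.327) and Cxcr4 by -1.60 (adjusted p = 0.000472). Of the 12 theca and stroma markers behind that mean 8 had a positive and 4 a negative difference. This fit therefore cannot separate a stroma part from the rest. The part of stroma cells in the Cxcl12 and Cxcr4 values was not tested.

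Receptor and ligand were set against each other on the same array, by taking the Cxcl12 signal from the Cxcr4 signal. This log2 difference was 4.48, 4.54, 4.96 and 4.99 on the PRKO arrays, against 6.70, 6.50, 6.95 and 6.23 on the PR+/- arrays. The 2 sets did not overlap. The means were 4.74 ± 0.27 and 6.60 ± 0.30 (SD, n = 4 each) in PRKO and PR+/- complexes, and the receptor changed relative to the ligand by -1.85 log2 units, or 3.61-fold (two-sided exact permutation p = 0.0286, the smallest possible). All Cxcl12 values lay between 5.00 and 5.59, a narrower span than the gap of 1.21 log2 units between the genotypes for Cxcr4. Taking them away could not make the sets overlap, so this p repeats the Cxcr4 result and is no separate support. The log2 differences show unequal change of the 2 transcripts. They do not give the amounts of the transcripts relative to each other, since probe sets differ in brightness.

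Among the ligands that draw neutrophils and monocytes, Cxcl1 and Ccl2 had the only other negative differences. Cxcl1, a neutrophil attractant that acts through CXCR2, read 5.44, 5.95, 5.90 and 6.12 in PRKO, against 6.09, 6.10, 6.05 and 6.20 in PR+/- complexes. PRKO replicate 1 was far below the rest and PRKO replicate 4 was level with the PR+/- arrays. The difference was -0.26 ± 0.12 (95% interval -0.53 to 0.02, limma adjusted p = 0.348), and it was -0.12 without PRKO replicate 1.

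Ccl2, a monocyte attractant and ligand of CCR2, read 4.12, 4.37, 4.31 and 4.32 in PRKO complexes, against 4.50, 4.43, 4.46 and 4.41 in PR+/- complexes. All PRKO arrays lay below all PR+/- arrays, by 0.04 log2 units at the nearest. The difference of -0.17 ± 0.08 did not pass (limma adjusted p = 0.325). Counting Cxcr4, 2 of the 9 genes were without overlap, both lower in PRKO, where 10.2% of all genes were without overlap in either direction and 4.12% were lower without overlap.

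Ccl7, which lies next to Ccl2 on chromosome 11 and also attracts monocytes, read 4.48, 4.96, 4.72 and 4.89 in PRKO, against 4.55, 4.72, 4.74 and 4.63 in PR+/- complexes. Its genotypes overlapped and its difference was 0.11 ± 0.11 (limma adjusted p = 0.695). The neighbours thus had differences of opposite sign, and neither passed.

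Cxcl14, a ligand also found in epithelia, varied most within PR+/- complexes. It read 7.03, 7.06, 6.48 and 7.24 in PRKO, against 6.05, 7.01, 7.13 and 6.48 in PR+/- complexes. The lowest array was PR+/- replicate 1, and the other arrays of the genotypes were intermixed. The difference of 0.28 ± 0.22 had a limma adjusted p of 0.596, and its 95% interval of -0.20 to 0.77 still allows a level 1.70 times that of PR+/- complexes, the widest limit among the 8 genes that did not pass. Without PR+/- replicate 1 the difference was 0.08.

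The interferon-induced ligand Cxcl10, which acts through CXCR3, read 3.48, 3.74, 3.85 and 4.35 in PRKO, against 3.9, 3.85, 3.77 and 3.84 in PR+/- complexes. The 4 PRKO arrays ranged over 0.87 log2 units and the PR+/- arrays over 0.13. PRKO replicate 1 was the lowest and PRKO replicate 4 the highest of the 8 arrays. The means nearly met, at a difference of 0.01 ± 0.15 (limma adjusted p = 0.979), and 7 of its 8 values lay below the lower quartile of their array.

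Cxcl16, a membrane-anchored ligand of CXCR6, read 4.16, 4.02, 4.39 and 4.17 in PRKO, against 4.28, 4.11, 4.08 and 4.09 in PR+/- complexes. The arrays overlapped, with a difference of 0.04 ± 0.09 (limma adjusted p = 0.88). Cxcl16, Cxcl10, Ccl2 and Ccl7 lay below the array median on all 8 arrays; with the background unknown, small changes of such dim probe sets may have been missed.

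Cx3cr1, the receptor of fractalkine and a gene of monocytes and macrophages, read 5.33, 5.53, 5.36 and 5.67 in PRKO, against 5.55, 5.58, 5.49 and 5.00 in PR+/- complexes. PR+/- replicate 4 was the lowest of the 8 arrays, and the others were intermixed. The difference was 0.07 ± 0.13 (95% interval -0.22 to 0.35, limma adjusted p = 0.862), and without PR+/- replicate 4 it was -0.07. The gene of its ligand, Cx3cl1, differed by -0.04 ± 0.11 and did not pass (adjusted p = 0.902; named after its values were seen).

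**Figure D2:**
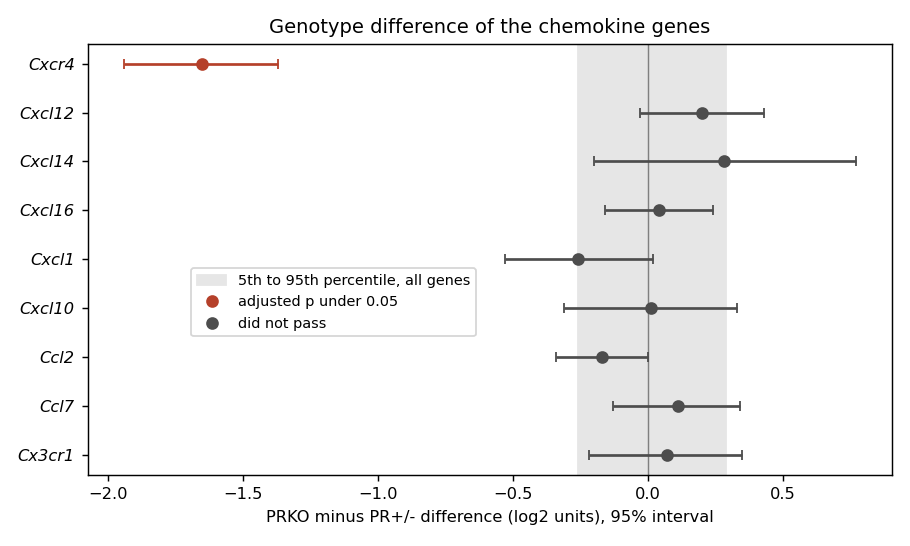
PRKO minus PR+/- difference in log2 units (horizontal axis) of the 9 genes with 95% intervals from limma, and the range from the 5th to the 95th percentile of all genes (-0.26 to 0.29) as a grey band. The interval of Cxcr4 (-1.94 to -1.37) lies far left of the band, and the point estimates of the other 8 genes lie between -0.26 and 0.28.

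Several of the 9 genes shared their lowest and highest PRKO array. PRKO replicate 1 was the lowest PRKO array for 6 genes (Cxcr4, Cxcl1, Cxcl10, Ccl2, Ccl7 and Cx3cr1), and it was lowest for 28.7% of all genes. PRKO replicate 4 was the highest for 5 genes (Cxcr4, Cxcl14, Cxcl1, Cxcl10 and Cx3cr1) and for 28.6% of all genes. The SD over arrays, as rounded here, was larger in PRKO than in PR+/- complexes for 6 of the 9 genes, and level at 0.16 for Cxcl12. The share of all genes with a larger SD in PRKO was not counted, so this count describes no trait of the 9 genes. Without PRKO replicate 1, its lowest array, Cxcr4 still fell, at a difference of -1.53 (limma adjusted p = 6.6e-05).

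The 3 genes with the profile nearest to that of Cxcr4 over the 8 arrays were Cgn, Adamts1 and Trank1. Nearness was the mean absolute distance of the log2 values after each gene was centred on its own mean, and it was 0.14, 0.15 and 0.16 log2 units for these genes against a median of 0.83 over all genes. Cgn encodes cingulin, a protein of tight junctions, and read 5.66, 6.11, 6.32 and 6.47 in PRKO, against 8.14, 7.41, 7.77 and 7.48 in PR+/- complexes. Like Cxcr4, it was lowest on PRKO replicate 1 and highest among PRKO arrays on replicate 4. Adamts1, a secreted matrix protease, averaged 9.87 ± 0.16 in PRKO and 11.35 ± 0.28 in PR+/- complexes. Trank1 averaged 4.12 ± 0.23 in PRKO and 5.49 ± 0.26 in PR+/- complexes (SD, n = 4 each). The differences were -1.56, -1.48 and -1.37 with limma adjusted p of 0.000767, 0.000154 and 0.000251. Most of the likeness is the genotype step itself, which chose them.

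**Figure D3:**
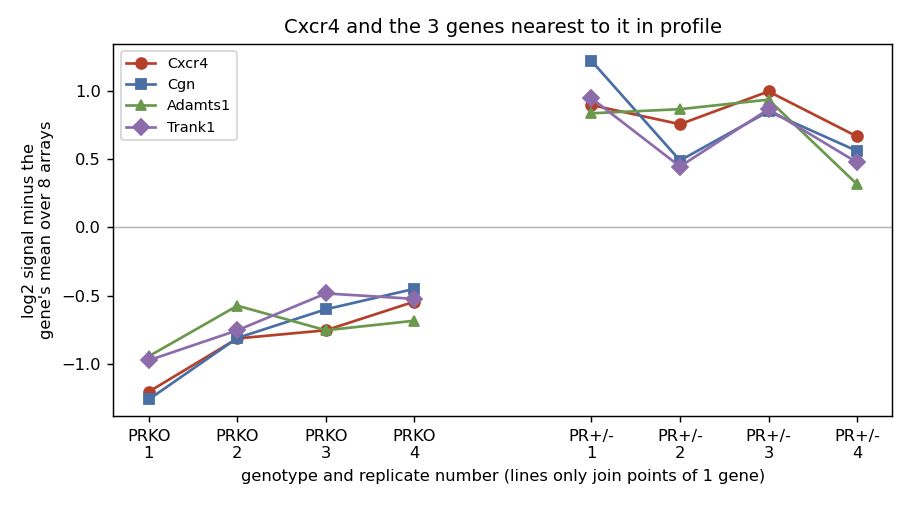
Log2 signal minus the gene's own mean over the 8 arrays (vertical axis) for Cxcr4, Cgn, Adamts1 and Trank1 on each PRKO and PR+/- array. All 4 genes lie below 0 on every PRKO array and above 0 on every PR+/- array, with PRKO replicate 1 the lowest array of each.

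Of 20 other chemokine receptor genes 0 passed in limma, where 2.92% of all genes passed. An unadjusted p under 0.05 was found for 3, against 16% of all genes, and 17 lay below the array median on all arrays. Ackr3, the other receptor of CXCL12 and named after its values were seen, read 5.05, 5.00, 5.01 and 5.41 in PRKO, against 5.42, 5.16, 5.18 and 4.71 in PR+/- complexes. Its genotypes overlapped and its means were both 5.12, with a 95% interval of the difference of -0.31 to 0.31, which does not reach the decrease seen for Cxcr4. The largest differences of the list were 0.35 ± 0.15 for Ccrl2, which binds chemerin without known signalling, and -0.33 ± 0.13 for Xcr1, with limma adjusted p of 0.278 and 0.23. The list median was 0.001.

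Of 29 other ligand genes 0 passed in limma, against 2.92% of all genes, and 25 lay below the array median throughout. For 2 the unadjusted p was under 0.05, against 16% of all genes. The largest differences were those of Ccl5 (-0.22 ± 0.08, limma adjusted p = 0.216) and Xcl1 (-0.22 ± 0.07, adjusted p = 0.135). Cxcl9 and Cxcl11, which share the receptor CXCR3 with Cxcl10, differed by -0.03 and -0.15 and did not pass; they were named after their values were seen. The list median was -0.007.

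The next list holds genes that carry the CXCR4 signal into the cell. Of its 24 measured genes of G protein, phosphoinositide 3-kinase and Rac signalling 0 passed in limma. Since 2.92% of all genes passed, a count of 0 in so short a list says little. An unadjusted p under 0.05 was found for 1, against 16% of all genes. That gene, Elmo1, a partner of DOCK proteins in the activation of Rac, read 7.07, 7.10, 7.09 and 6.76 in PRKO, against 6.89, 6.41, 6.68 and 6.48 in PR+/- complexes (difference 0.39 ± 0.12, limma adjusted p = 0.112). PRKO replicates 1 to 3 lay above all PR+/- arrays and PRKO replicate 4 did not. Gnai1, an inhibitory G protein subunit, differed by 0.21 ± 0.13 (adjusted p = 0.467). The list median was 0.087, against 0.004 over all genes, and 17 of the 24 differences were positive. The share of positive differences over all genes was not counted.

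Of 26 genes that regulate CXCR4 or CXCL12, 1 fell, 0 rose and 25 did not pass. Over all genes 1.48% fell and 1.43% rose at this threshold. An unadjusted limma p under 0.05 was found for 5 of the 26, against 16% of all genes. These counts are near the shares over all genes. Arrb1, which encodes beta-arrestin 1, an adaptor that uncouples and internalises activated receptors, read 7.0, 6.8, 6.88 and 6.49 in PRKO, against 7.49, 7.32, 7.55 and 7.15 in PR+/- complexes. All PRKO arrays lay below all PR+/- arrays. The difference was -0.58 ± 0.12, a 1.5-fold decrease with a limma adjusted p of 0.026. The call ended without PR+/- replicate 1, 2 or 3 or PRKO replicate 2, 3 or 4, at adjusted p from 0.0555 to 0.0854. It also ended with the mean of stroma markers (0.0557) or of leukocyte markers (0.055) as a covariate, over all probe sets (0.0943) and without moderation (0.165). Usp14, a deubiquitinase that acts on CXCR4 in human cells, read 8.80, 8.91, 8.89 and 8.85 in PRKO, against 8.57, 8.66, 8.54 and 8.59 in PR+/- complexes, with no overlap (0.28 ± 0.07), yet its adjusted p was 0.0744. Rgs2, which shortens G protein signals, differed by -0.26 ± 0.10 (adjusted p = 0.222).

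Of 14 genes of leukocyte adhesion and inflammatory induction 0 passed in limma, against 2.92% of all genes. An unadjusted p under 0.05 was found for 1, against 16% of all genes. That gene was Il6, a cytokine gene of expanding cumulus, at 3.38 ± 0.31 in PRKO and 4.12 ± 0.54 in PR+/- complexes (difference -0.73 ± 0.23, limma adjusted p = 0.13). Without PR+/- replicate 4 Il6 differed by -1.0 and passed (limma adjusted p = 0.0033). That array read 3.31, against 4.33 to 4.48 on the other PR+/- arrays. The PRKO values of Il6, 2.93 to 3.63, lay under the lower quartile of those arrays (3.92 to 4.00), so its probe set was dim. Nfkbia, an inhibitor of NF-kappaB that this factor induces, differed by -0.23 ± 0.11 (adjusted p = 0.335). The list median was -0.056, with 4 positive and 10 negative differences.

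**Figure D4:**
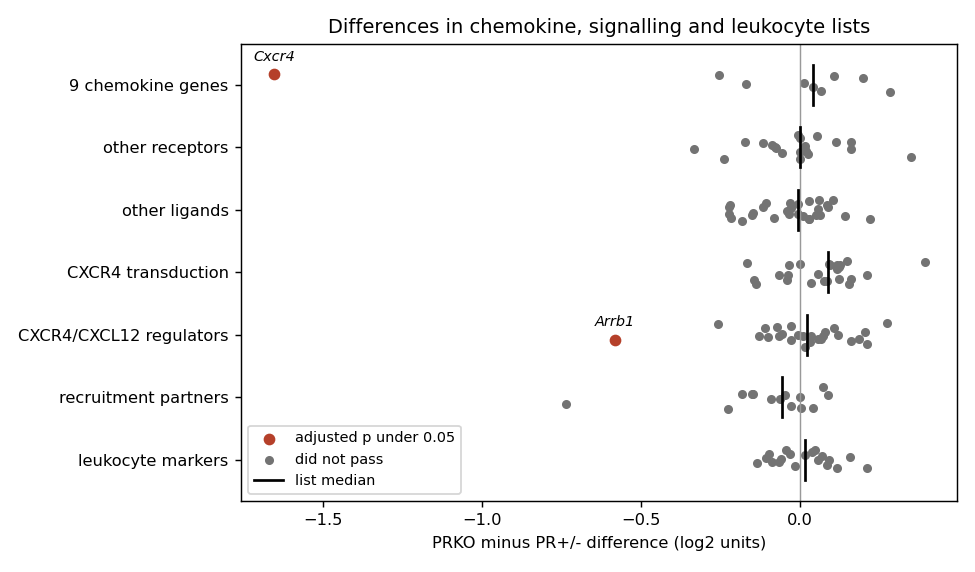
PRKO minus PR+/- difference in log2 units (horizontal axis) of each measured gene in 7 lists, with genes past the limma threshold in red and list medians as black bars. Cxcr4 at -1.65 and Arrb1 at -0.58 are the red points, and the other genes apart from Il6 at -0.73 lie between -0.33 and 0.39.

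Leukocytes carry many chemokine receptors, so their markers are given beside these values. Of 19 measured leukocyte genes 0 passed in limma, against 2.92% of all genes, and 0 had an unadjusted p under 0.05, against 16%. Of these leukocyte genes 17 lay below the array median and 8 below the lower quartile on all arrays. The pan-leukocyte gene Ptprc, named after its values were seen, averaged 3.78 in PRKO and 3.79 in PR+/- complexes, under the lower quartile of the arrays (3.92 to 4.00). The list mean ranged over 3.94 to 4.01 on the PRKO arrays and 3.96 to 3.99 on the PR+/- arrays, and the brightest markers, Cd68 and Cd3e, differed by 0.21 and 0.01, and the neutrophil gene S100a9 by 0.16. With the list mean as a covariate Cxcr4 differed by -1.76 (limma adjusted p = 1.61e-05). Most of these markers are dim and their mean hardly moved between arrays, so this fit cannot separate a leukocyte part from the rest. The part of leukocytes in the Cxcr4 value was not tested. Among 10 endothelial markers Kdr rose by 0.80 ± 0.15 (adjusted p = 0.0126) and 9 did not pass, with Cdh5 at -0.29 and Emcn at 0.32; the list mean was 5.03 to 5.17 on the PRKO arrays and 4.94 to 5.03 on the PR+/- arrays. The Kdr call ended without PR+/- replicate 3 or PRKO replicate 3 (adjusted p 0.0508 and 0.0512), over all probe sets (0.0685) and without moderation (0.149). The part of endothelial cells in the chemokine values was not tested.

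In the list of 12 cumulus and granulosa markers Fshr, the receptor of follicle-stimulating hormone, fell by 1.06 ± 0.15 (limma adjusted p = 0.00221) and Cyp11a1 rose by 0.39 ± 0.09 (0.0324), while 10 did not pass, among them Amhr2 (0.45) and Foxl2 (-0.33). Over all genes 2.92% passed in limma. Of these 12 markers 5 had an unadjusted limma p under 0.05, against 16% of all genes, and 3 were without overlap, against 10.2%. The Fshr call ended without moderation (adjusted p = 0.089). The Cyp11a1 call ended without any 1 of PR+/- replicates 1 to 3 or PRKO replicates 2 to 4 (up to 0.0923), with array medians subtracted (0.0642), over all probe sets (0.0865), without moderation (0.104) and with stroma (0.053) or leukocyte markers (0.0684) as a covariate. The list mean was 9.26 to 9.74 in PRKO and 9.22 to 9.68 in PR+/- complexes. Of 12 oocyte markers 0 passed in limma (1 at an unadjusted p under 0.05, Npm2 at -0.23), with list means of 5.88 to 6.40 in PRKO and 5.81 to 6.55 in PR+/- complexes. Of 12 theca and stroma markers 0 passed in limma, against 2.92% of all genes. An unadjusted p under 0.05 was found for 4, against 16% of all genes. The list median was 0.15, with 8 positive and 4 negative differences. Acta2 (0.47), Col3a1 (0.40), Nr2f2 (-0.28) and Ptch1 (0.00) were named by the rule.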

How the data were processed

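For every array the authors deposited a log2 signal per probe set, and Partek is named, per the submitters' processing notes, without a version. How background was removed and how arrays were normalized or summarised is not stated there. Base 2 was inferred from the range of the values (1.19 to 14.08). Of 35556 probe sets, the 21789 with 1 gene symbol (19938 genes) were tested without a signal filter. Differences are PRKO minus PR+/- from limma 3.58.1 in R 4.3.3 (lmFit and eBayes, prior degrees of freedom 6.04), two-sided, Benjamini-Hochberg adjusted over all 21789, threshold 0.05; 95% intervals are moderated. Only Cxcr4 and the receptor minus ligand value were also tested by exact permutation of the 8 arrays. The fit was tested on simulated data. The labels give replicate numbers no shared source, so no block was used. Same-numbered arrays correlated in their deviations at 0.08 to 0.153, all positive, with 1 of 4 pairs under 0.1. A batch shared by number is therefore not excluded. The 9 genes and all lists were chosen with earlier results of these data known. The text names, from each list, genes past the threshold and up to 2 others by size, and from marker lists the 2 brightest; exceptions are marked. Some listed genes were not analysed here. The number of arrays limits precision. Python 3.11.15 and matplotlib 3.10.9 made tables and plots.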

Additional observations from a re-analysis of the deposited data

Results flagged for a closer look

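In 7 of 80 groups of 4 arrays, 2 for each gene named by the rule and for the receptor minus ligand value, a single array lay far from the other 3 (Dixon's test at the 95% level), and chance flags about 1 in 20 groups. Among the chemokine genes, Cxcl16 read 4.28 on PR+/- replicate 1 and 4.08 to 4.11 on the other PR+/- arrays. Cx3cr1 read 5.00 on PR+/- replicate 4 and 5.49 to 5.58 on the others of that genotype. In the other lists, Ccrl2 read 5.4 on PRKO replicate 1 (5.85 to 5.86 on the rest), Elmo1 6.76 on PRKO replicate 4 (7.07 to 7.10), Il6 3.31 on PR+/- replicate 4 (4.33 to 4.48), Emcn 3.9 on PR+/- replicate 1 (4.15 to 4.19) and Foxl2 8.22 on PR+/- replicate 4 (7.81 to 7.82). No such array was found for Cxcr4 or for the receptor minus ligand value.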

How the results depend on the processing

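Cxcr4 was lower and passed under all 20 alternatives, at -1.75 to -1.53 with 1 array left out and -1.76 to -1.60 otherwise. Its limma adjusted p was 1.61e-05 to 0.035, the highest without moderation. The looser threshold of 0.1 could not end the call of a gene past 0.05, so that alternative adds nothing. Cxcr4 was the 1 of the 9 genes that passed in each, and the filter at the median signal kept 3 of them. The receptor minus ligand difference was -1.97 to -1.73 with 1 array left out and about -1.85 otherwise; as a replicate block, by flipping signs within same-numbered arrays, it stayed -1.85 with exact p = 0.125, the smallest that 4 pairs give. With the replicate block Cxcr4 had an adjusted p of 0.000166 and no call of the 9 genes changed. Signs turned for genes near 0 that did not pass, within ranges that reached, with 1 array left out, 0.14 for Cxcl10, 0.13 for Cx3cr1, 0.07 for Cd3e, 0.44 for Bmp15 and -0.06 for Ptch1 on the other side: Cxcl10 was -0.01 with array medians subtracted, -0.09 with leukocyte markers as a covariate, -0.01 without PR+/- replicate 3 and -0.15 without PRKO replicate 4; Cxcl16 was -0.03 without PRKO replicate 3; Cx3cr1 was -0.07 without PR+/- replicate 4 and -0.00 without PRKO replicate 4; Bmp15 was -0.13 without PR+/- replicate 1. Cd3e was -0.01 under quantile normalization and with medians subtracted, -0.03 with the leukocyte covariate, and -0.02 and -0.03 without PRKO replicates 3 and 4. Ptch1 was 0.01 with array weights, 0.03 with the leukocyte covariate, and 0.05, 0.05, 0.00 and 0.08 without PR+/- replicates 3 and 4 and PRKO replicates 2 and 4. Over the 5 further chemokine, signalling and recruitment lists (113 genes) 1 gene passed, Arrb1, where 2.92% of all genes passed. The count was 2 at an adjusted p of 0.1 and above the median signal (with Usp14). It was 0 over all probe sets and with either marker covariate, 1 (Xcl1, not Arrb1) without moderation, and 0 to 2 with 1 array left out. The cause was not tested. The median of all genes was 0.004 as deposited, -0.015 after quantile normalization and -0.023 with medians subtracted. Of the comparisons of other named genes with their alternatives, 535 kept direction and side of the threshold, 36 lost a call and 8 gained one. Probe sets near the background limit what can be seen of the dim chemokines.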
